A study of Mus musculus with 36 samples.

Results

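Sgk1, Sgk2 and Sgk3 encode the serum and glucocorticoid regulated kinases, and Ndrg1 and Ndrg2 encode proteins that these kinases phosphorylate. All array probe sets annotated to 1 of these 5 symbols were taken, which gave 11 of 45101 probe sets and 5 of 18193 named genes. Sgk1, Sgk2 and Ndrg2 had 1 probe set each, Sgk3 had 3 and Ndrg1 had 5. All 11 passed the filter on dim probe sets. The genes were chosen by name, with earlier results of these arrays known.

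Messenger RNA came from the forebrain of 18 C57BL/6 mice that carried the Cnp – eGFP-L10a transgene. In these mice the promoter of Cnp, a gene of myelinating cells, drives a fluorescent ribosomal protein, and tagged ribosomes are pulled down from tissue lysate. The precipitate is called the bound fraction and stands for oligodendrocytes by the labels, while the unbound fraction is the supernatant with the other cell types. Each animal gave 1 array of each fraction, so the 36 arrays formed 6 groups of 6. Sleeping mice were killed in the light phase (3 to 5 pm) and had slept for 75% or more of the final 6 to 7 h. Awake mice were killed in the dark phase (3 to 5 am) and had been awake for 70% or more of such a window. Sleep deprived mice had been awake through most of the dark phase and were then kept awake for 4 h of the light phase with objects new to them. All animals shared the transgene and strain, and no animal without the tag was analysed here. Waking and sleep differ in time of day as well as in state, and these cannot be told apart. The same holds for sleep deprivation against waking, since the waking group alone was killed in the dark phase. No clock time of death was listed for the deprived mice, so they may differ in time of day from the sleeping mice too.

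SGK kinases belong to the same branch of protein kinases as AKT. PDK1 and the mTORC2 complex phosphorylate and activate them. Sgk1 is a classic target gene of the glucocorticoid and mineralocorticoid receptors, Sgk3 is recruited to endosomes through a lipid-binding domain, and less is known of Sgk2. NDRG1 is needed for myelin maintenance in peripheral nerve and is induced by hypoxia, and NDRG2 is a common astrocyte marker.

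The RefSeq promoter table held start-site windows for Sgk1 (6 windows) and Ndrg2 (3 windows). The stretch of Sgk1 shown here was picked because it holds a full glucocorticoid response element. It covers the 250 bases before the fifth start site, at chr10:21993640-21993889 of GRCm38.p6 on the + strand, as given by RefSeq. Capitals mark the element and an upstream E-box.
Sgk1: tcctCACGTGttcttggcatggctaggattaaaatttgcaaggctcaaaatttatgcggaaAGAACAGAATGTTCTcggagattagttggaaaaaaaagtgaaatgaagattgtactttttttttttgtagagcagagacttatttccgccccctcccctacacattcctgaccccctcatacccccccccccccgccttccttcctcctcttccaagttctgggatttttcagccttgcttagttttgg

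The element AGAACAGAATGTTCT lies 189 to 175 bases before that start site and ends 951 bases before the sixth. Windows of 300 bases (250 before and 50 after a start) were searched on both strands for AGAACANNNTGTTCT (the full element), AGAACA (its half-site, also counted inside the full element), CACGTG (the E-box bound by clock factors) and ACGTG (the core of the hypoxia element, also counted inside the E-box). The full element was present in 3 of 32851 windows in the table (0.00913%), those of Sgk1, Acnat2 and Gm35041. The half-site was in 19.0% of windows, the E-box in 7.15% and the hypoxia core in 19.6%. None of the 4 strings occurred in the 3 windows of Ndrg2. Such a match describes letters, and occupancy was not measured here.

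Before the state comparisons, the fractions were compared with cell type markers. All 9 tested oligodendrocyte markers were higher in the bound arrays (median 2.39 log2), while 10 of 10 astrocyte, 8 of 8 neuron and 7 of 7 microglia markers were lower. All 3 tested endothelium markers were lower too. Of 5 oligodendrocyte precursor markers 2 were higher and 3 lower, and of 4 choroid plexus and ependyma markers 1 was higher and 3 lower. Among all genes tested, 25.5% were called higher and 58.1% lower. Neuronal messages remained in the bound arrays at a summed level of 14.79 to 15.20 log2, against 15.72 to 15.85 in the unbound arrays. The mean signal of an array varied little inside a group (SD 0.00293 to 0.00994 log2), while group averages ran from 5.91 to 6.41. RMA, the normalization the submitters name, makes the arrays of a run alike, so the groups may have been processed in separate runs, which the sources used here do not settle. In that case each difference between groups also holds any offset between runs, and p-values may be too small. Scaling the arrays again removes an array-wide offset but not one of a single gene. Of the 11 state calls of the 5 genes described below, 10 were kept under each of 3 such scalings, all but that of Ndrg1. Sex-linked genes set 3 animals apart from the other animals: waking 3, waking 5 and sleep deprived 11. Without them, 17 of the 21 calls of the 5 genes in all comparisons were kept, and the 4 that were lost are given with their results.

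Sgk1, Sgk2, Sgk3 and Ndrg1 were higher in the bound than in the unbound arrays, and Ndrg2 was lower. A gene was called at a limma adjusted p below 0.05 (Benjamini-Hochberg over 13924 genes), and 83.6% of all genes tested were called between the fractions, so the count of 5 of 5 is near the background. Higher calls made up 25.5%, and 4 of the 5 genes were among them. Sgk2 had the widest separation: its 18 bound values averaged 11.04 ± 0.53 log2 (SD) and its unbound values 6.83 ± 0.48, a difference of 4.22 ± 0.08 (SE, n = 18 animals, adjusted p = 4.81e-20) or 18.6-fold. Ndrg1 was 2.63 ± 0.06 log2 higher in the bound arrays (adjusted p = 1.29e-18), and its 5 probe sets gave 2.63 to 3.67. Sgk3 was higher by 1.65 ± 0.08 (adjusted p = 1.57e-13) and Sgk1 by 1.55 ± 0.07 (adjusted p = 4.5e-14). Each of these 4 genes was higher in the bound array in 18 of 18 animals, while bound and unbound values of Sgk1 overlapped across animals. In such bulk fractions, a difference in the number of cells and a difference in RNA per cell cannot be told apart.

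Ndrg2, the astrocyte-associated member, was lower in the bound arrays by 0.54 on the log2 scale as deposited (difference −0.54 ± 0.02, adjusted p = 7.39e-15). The sign depended on scaling: with the median of every array set equal, Ndrg2 was 0.16 higher in the bound arrays (adjusted p = 5.88e-06). The same step moved the median of all genes between the fractions from −0.35 to 0.35. The 10 astrocyte markers had a median difference of −1.95 as deposited.

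**Figure D1:**
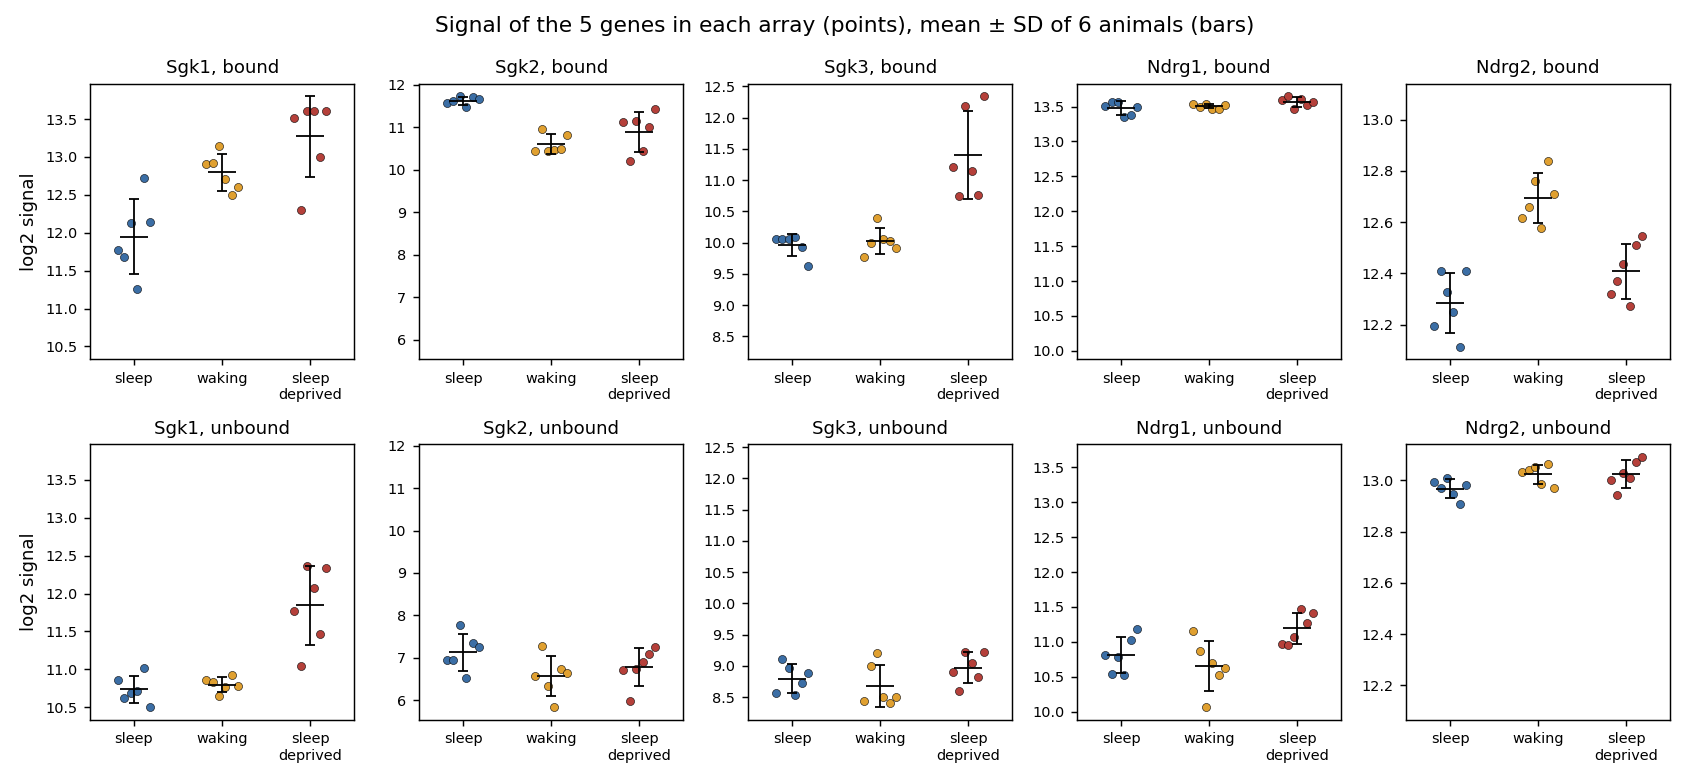
Log2 signal of Sgk1, Sgk2, Sgk3, Ndrg1 and Ndrg2 (1 probe set per gene) in bound (top) and unbound (bottom) arrays, by state. Points are arrays and bars are the mean ± SD of 6 animals; the y axis is shared within a gene, spans a different range for each gene and does not start at 0. The deprived group of Sgk3 stands apart in the bound arrays (10.74 to 12.34) and that of Sgk1 in the unbound arrays (11.05 to 12.37).

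Within the bound arrays, the 3 kinases had 3 different sets of state calls, though no test compared one gene with another. Sgk1 was higher in both wake groups, Sgk2 was lower in both, and Sgk3 was higher in sleep deprivation. Of the 5 genes, 3 were called in waking against sleep (Sgk1 and Ndrg2 higher, Sgk2 lower), where 9.47% of all genes tested were called. Sleep deprivation against sleep also gave 3 (Sgk1 and Sgk3 higher, Sgk2 lower, background 14.4%), and sleep deprivation against waking gave 2 (Sgk3 higher, Ndrg2 lower, background 5.01%). The unbound arrays gave 0 of 5 for waking against sleep (background 7.21%), 1 of 5 for sleep deprivation against sleep (7.82%) and 2 of 5 for sleep deprivation against waking (9.94%). For the count of 0, Sgk2 alone had an unadjusted p under 0.05 (0.0353). The 2 comparisons with sleep share the sleep animals.

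Sgk1, the hormone-inducible kinase, ranged in the bound sleep arrays from 11.26 to 12.72 log2 (median 11.95). Bound waking arrays ran from 12.49 to 13.15 (median 12.81) and bound deprived arrays from 12.30 to 13.61 (median 13.56). All 6 animals of each wake group lay above the sleep mean, but sleep animal 5, at 12.72, overlapped both groups. Waking exceeded sleep by 0.85 ± 0.23 log2 (SE, n = 6 and 6, adjusted p = 0.0238), or 1.80-fold. Sleep deprivation exceeded sleep by 1.32 ± 0.23 (adjusted p = 0.000682), which is 2.5 times the sleep level. The deprived and waking groups differed by 0.47 (95% interval −0.00 to 0.95, adjusted p = 0.254), which did not pass. The waking call was lost without the 3 animals set apart (0.84, adjusted p = 0.0758), without sleep animal 4 (0.71, adjusted p = 0.0577) and without waking animal 3 (0.78, adjusted p = 0.0577).

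In the unbound arrays the medians of Sgk1 had the same order. Sleep values ran from 10.50 to 11.02 log2 (median 10.70), waking values from 10.65 to 10.92 (median 10.80) and deprived values from 11.05 to 12.37 (median 11.93). Sleep and waking overlapped fully, and every deprived array lay above both groups. Sleep deprivation exceeded sleep by 1.11 ± 0.17 (adjusted p = 0.000398) and waking by 1.05 ± 0.17 (adjusted p = 0.00107). Among all genes, groups without overlap made up 5.14% and 5.45% in these comparisons. Waking against sleep gave 0.06 (95% interval −0.29 to 0.42, adjusted p = 0.853).

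Whether a state change differed between the fractions was tested on the bound minus unbound difference of each animal. For Sgk1 the waking change was larger in the bound fraction by 0.78 ± 0.18 log2 (n = 6 and 6 animals, adjusted p = 0.0134, 6 of 6 waking animals above the sleep mean). Without the animal pairing of the arrays it gave adjusted p = 0.114. The deprivation change differed by 0.21 (95% interval −0.16 to 0.58, adjusted p = 0.544). These tests called 2 of the 5 genes for waking against sleep (Sgk1 and Ndrg2, background 5.34%), 1 for sleep deprivation against sleep (Sgk3, 6.24%) and 2 for sleep deprivation against waking (Sgk3 and Ndrg2, 4.27%), of which that of Ndrg2 was lost under some alternatives.

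**Figure D2:**
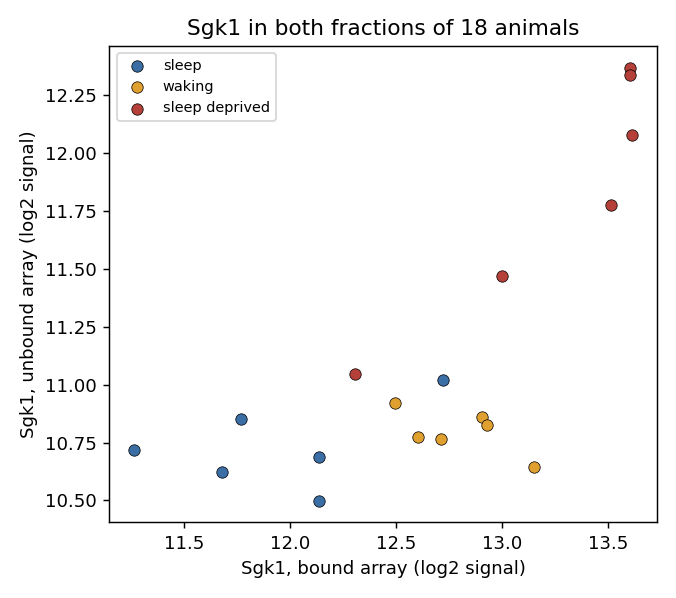
Sgk1 log2 signal in the bound array (x axis) and the unbound array (y axis) of each of the 18 animals, coloured by state. Waking animals lie to the right of most sleep animals at unbound values of 10.65 to 10.92, and deprived animals spread upward from 11.05 to 12.37.

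Sgk2 was high in the sleeping animals. Its bound sleep values lay within a narrow band, 11.49 to 11.73 log2 (median 11.64). Waking values ran from 10.43 to 10.96 (median 10.48) and deprived values from 10.20 to 11.43 (median 11.07). No animal of either wake group reached the lowest sleep value. Waking was lower than sleep, with a difference of −1.02 ± 0.16 log2 (adjusted p = 0.000666) or 2.03-fold, and sleep deprivation was lower with −0.73 ± 0.16 (adjusted p = 0.00483) or 1.66-fold. Genes without overlap made up 5.68% and 7.33% of all genes in these comparisons. The deprived and waking groups differed by 0.29 (95% interval −0.05 to 0.63, adjusted p = 0.349). Both calls against sleep were kept under every alternative listed for them and in each fit that left out 1 animal.

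In the unbound arrays Sgk2 was dim. Sleep values ran from 6.52 to 7.76 log2, waking values from 5.84 to 7.28 and deprived values from 5.99 to 7.26, and the groups overlapped. Waking minus sleep was −0.56 ± 0.25 (adjusted p = 0.173) and deprivation minus sleep −0.35 ± 0.25 (adjusted p = 0.438). The difference of the change between the fractions did not pass either (waking −0.46, 95% interval −0.89 to −0.04, adjusted p = 0.192).

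Sgk3, the endosomal kinase, was higher after sleep deprivation in the bound arrays. Values in sleep ran from 9.62 to 10.09 log2 (median 10.05) and in waking from 9.77 to 10.40 (median 10.01). In sleep deprivation they ran from 10.74 to 12.34 (median 11.18). The sleep and waking groups overlapped, and all 6 deprived animals lay above both. Groups without overlap made up 7.33% of all genes against sleep and 3.76% against waking. Sleep deprivation exceeded sleep by 1.43 ± 0.23 (adjusted p = 0.000347) or 2.70-fold, and waking by 1.37 ± 0.23 (adjusted p = 0.00238) or 2.59-fold. Waking minus sleep was 0.06 (95% interval −0.42 to 0.54, adjusted p = 0.904).

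The 3 probe sets of Sgk3 list one transcript sequence and are not independent. Each rose in sleep deprivation, by 1.43 to 1.72 log2 against sleep and by 1.28 to 1.68 against waking, where 14.3% and 5.06% of 25422 probe sets were called. None was called for waking against sleep (−0.21 to 0.44). The unbound groups of the brightest probe set averaged 8.80 ± 0.23 (SD, n = 6) in sleeping, 8.67 ± 0.34 in waking and 8.97 ± 0.25 in deprived animals, with no call. The deprivation change was larger in the bound fraction by 1.26 ± 0.20 against sleep (adjusted p = 0.000949) and by 1.08 ± 0.20 against waking (adjusted p = 0.00585). Bound and unbound changes therefore differed for Sgk3 under deprivation by the test of the difference, whereas for Sgk1 under deprivation that test did not pass.

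**Figure D3:**
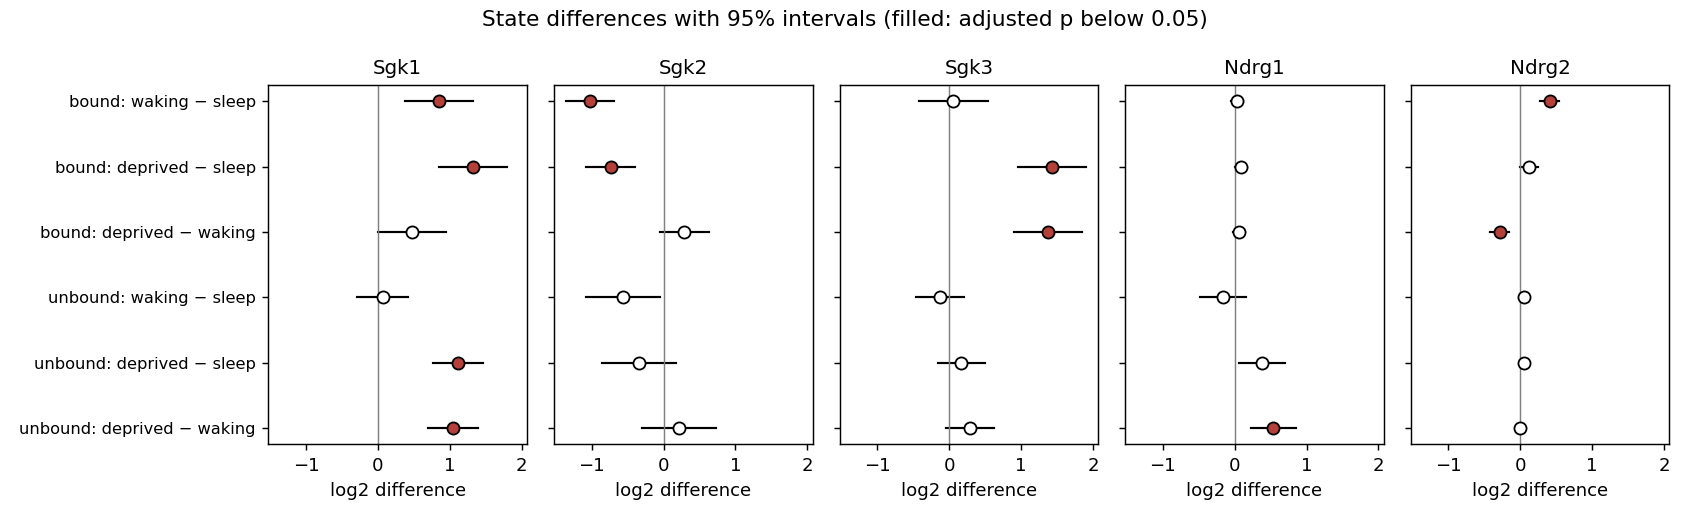
State differences (log2) of the 5 genes with limma 95% intervals, for 3 comparisons in bound and 3 in unbound arrays. Filled points have an adjusted p below 0.05: Sgk1 is filled in 4 comparisons, Sgk2 in 2 (−1.02 and −0.73), Sgk3 in 2 (1.43 and 1.37), Ndrg1 in 1 (0.54) and Ndrg2 in 2 (0.41 and −0.29).

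Ndrg1, the hypoxia-inducible substrate, had no called state difference in the bound arrays. The probe set used ran from 13.34 to 13.57 log2 in sleeping, 13.47 to 13.54 in waking and 13.46 to 13.65 in deprived animals. The groups overlapped, and the 95% interval of deprivation minus sleep was 0.00 to 0.17. None of the 5 probe sets was called in a bound state comparison by limma, with differences of −0.03 to 0.16, and 2 of the 15 tests had an unadjusted p under 0.05. In the unbound arrays values ran from 10.53 to 11.18 in sleeping, 10.06 to 11.15 in waking and 10.95 to 11.47 in deprived animals. Deprivation exceeded waking by 0.54 ± 0.15 (adjusted p = 0.0307), with overlapping groups.

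That call of Ndrg1 rested on 1 of 5 probe sets (9.85% of all probe sets were called), one whose name ending (_x_at) marks probes that may bind other transcripts. The other 4 gave −0.20 to 0.34 without a call. Quantile normalization over all arrays ended the call (0.42, adjusted p = 0.131), as did the mean of all 5 probe sets (0.12, adjusted p = 0.444) and leaving out the 3 animals set apart (0.31, adjusted p = 0.226). It was also lost in 6 of 18 fits that left out 1 animal, those without waking animal 3, 5 or 6 or deprived animal 9, 10 or 11 (0.42 to 0.53, adjusted p up to 0.0688). The median of all genes in this comparison was 0.11. The summed level of 9 oligodendrocyte markers in unbound arrays was 14.56 to 14.66 in deprived animals, 14.36 to 14.47 in waking and 14.40 to 14.56 in sleep. Against waking 4 of those 9 markers were called higher, where 8.45% of all genes were, but 1 under each of the 3 scalings and 1 without the 3 animals. Against sleep 3 were higher and 1 lower. Their part in the Ndrg1 and Sgk1 values was not tested.

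**Figure D4:**
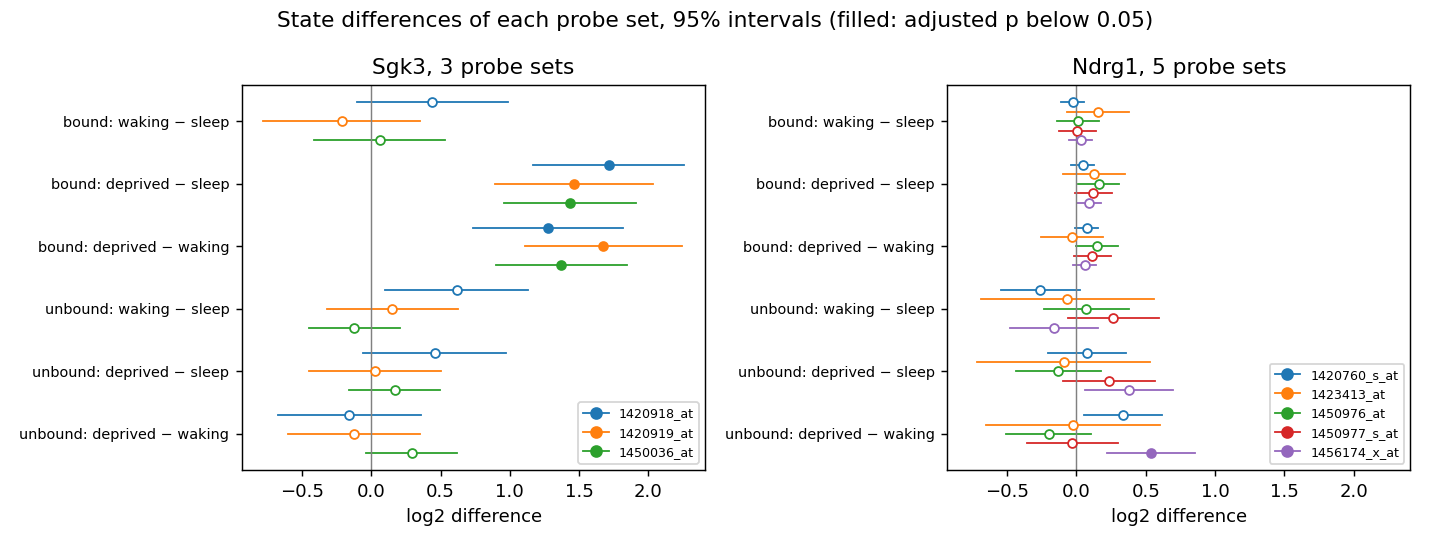
State differences (log2) with 95% intervals for each of the 3 probe sets of Sgk3 (left) and the 5 of Ndrg1 (right), filled where the adjusted p over 25422 probe sets is below 0.05. All 3 Sgk3 probe sets are filled for both bound deprivation comparisons, and 1 Ndrg1 probe set is filled, for unbound deprivation against waking.

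Ndrg2 was higher in the waking group in the bound arrays. Sleep values ran from 12.12 to 12.41 log2 (median 12.29), waking values from 12.58 to 12.84 (median 12.69) and deprived values from 12.27 to 12.55 (median 12.40). The waking group did not overlap either of the others, while sleep and deprived animals overlapped. Genes whose waking group lay apart made up 5.68% of all genes against sleep and 3.76% against sleep deprivation. Waking exceeded sleep by 0.41 ± 0.06 (adjusted p = 0.000478) or 1.33-fold. Sleep deprivation was below waking, with −0.29 ± 0.06 (adjusted p = 0.011), and without the 3 animals set apart that call was lost (−0.26, adjusted p = 0.0594). Sleep deprivation minus sleep was 0.12 (95% interval −0.01 to 0.25, adjusted p = 0.196).

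In the unbound arrays, which hold the RNA left after the oligodendrocyte pull-down, Ndrg2 ran from 12.91 to 13.09 log2 over all 3 states and no comparison passed. Each of 3 other scalings called waking higher than sleep there: quantile normalization over all arrays (0.12, adjusted p = 0.0358) or within fractions (0.11, adjusted p = 0.0329) and equal array medians (0.16, adjusted p = 0.00655). The waking change was larger in the bound fraction by 0.35 ± 0.06 (adjusted p = 0.00109), and the deprivation minus waking change was lower there by a difference of −0.29 ± 0.06 (adjusted p = 0.00653). This second call was lost with equal array medians (−0.16, adjusted p = 0.148), with no intensity trend (adjusted p = 0.0753) and without the 3 animals set apart (−0.26, adjusted p = 0.0538). The summed level of the 10 astrocyte markers in bound arrays was 11.84 to 12.57 in sleeping, 12.02 to 12.56 in waking and 12.09 to 12.58 in deprived animals. In waking against sleep 2 of the 10 were called (1 without the 3 animals set apart), both higher, where 4.68% of all genes were. They were Gjb6, a gap junction gene (0.96), and Fgfr3, a growth factor receptor (0.54). Aqp4 (−0.29), Slc1a3 (−0.07) and Slc1a2 (−0.02) were below 0 and the remaining astrocyte markers above, all without a call. The list's median there was 0.29, against −0.01 for all genes, and its part in the Ndrg2 value was not tested.

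The genes around these kinases were grouped into 6 lists. Against sleep, higher calls made up 4.68% of all genes in bound waking, 7.53% in bound and 4.65% in unbound sleep deprivation, and lower calls 4.79%, 6.87% and 3.17%. With lists this short, a count of 0 or 1 is near these shares. Among corticosteroid receptors and hormone access genes, 1 of 5 rose in bound waking against sleep and 2 of 5 in bound sleep deprivation against sleep (list medians 0.42 and 0.07, against −0.01 for all genes in both). The median of 0.42 is the value of 1 gene without a call, Hsd11b1. Its groups overlapped (4.98 to 7.05 log2 in bound sleep, 5.60 to 7.24 in bound waking). Fkbp5 is a cochaperone of the glucocorticoid receptor and itself a target of it. Its bound values ran from 6.09 to 7.26 log2 in sleep, 7.13 to 8.74 in waking (no call against sleep) and 8.91 to 10.55 in deprived animals. In sleep deprivation against sleep it rose by 3.20 ± 0.30 in bound (adjusted p = 1.66e-06) and by 1.03 ± 0.20 in unbound arrays (adjusted p = 0.00289). Fkbp4, another cochaperone, rose in the bound arrays in waking (0.59) and in sleep deprivation (0.57). The glucocorticoid receptor gene Nr3c1 had −0.11 and −0.16 in these comparisons, with no call.

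Of 8 kinase complex genes that act on SGK, 0 were called by limma in bound waking against sleep. There 3 had an unadjusted limma p under 0.05 (Mapkap1, Pdpk1 and Prr5l). In bound sleep deprivation against sleep 1 of the 8 fell. That gene was Deptor, an inhibitor that binds mTOR, with −1.03 ± 0.22 against sleep (adjusted p = 0.00394) and −0.85 against waking. Prr5 and Prr5l encode related mTORC2 components. Prr5l was 4.01 ± 0.10 log2 higher in bound than in unbound arrays (adjusted p = 1.85e-18), while Prr5 was lower with −1.10 ± 0.11. In the unbound arrays, Prr5 rose in sleep deprivation by 1.83 ± 0.25 against sleep (adjusted p = 0.000139), and its deprivation change differed between the fractions by −1.78 (adjusted p = 0.000628). Its bound level was dim, with group means of 5.15 to 5.31 log2 near the filter cutoff of 4.471. Whether a change could show at that level was not tested. Prr5l fell in unbound waking, with −1.16 against sleep. Pdpk1, which encodes the kinase PDK1, and Rictor, the defining mTORC2 subunit, had no state call. Without the 3 animals set apart, Deptor was not called against waking (−0.99, adjusted p = 0.0594).

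Of 14 substrates and effectors of SGK, 1 fell in bound waking and 1 rose in bound sleep deprivation against sleep, and the unbound deprivation comparison gave 1 up and 1 down. Tsc22d3, a glucocorticoid-induced regulator that acts with SGK1, rose in sleep deprivation by 0.45 ± 0.09 in bound (adjusted p = 0.00223) and by 1.03 ± 0.14 in unbound arrays (adjusted p = 0.000134). Scnn1b, a sodium channel subunit, fell in bound waking (−0.46) and in unbound deprivation (−0.51), at a dim level of 4.36 to 5.32 over group means. Of 11 hypoxia genes, 3 rose in sleep deprivation in each fraction: Ankrd37, Ddit4 and P4ha1 in bound and Ddit4, P4ha1 and Pfkfb3 in unbound arrays. In bound waking none rose and Vegfa, a blood vessel growth factor, fell (−0.58, adjusted p = 0.0483). Without the 3 animals set apart, P4ha1 alone was called in bound sleep deprivation and Vegfa was not called (adjusted p = 0.152). Ddit4 lost both calls under quantile normalization over all arrays (0.37 and 0.44, adjusted p = 0.0868 and 0.0596), and Vegfa lost its call too (adjusted p = 0.0525). Among the 11 hypoxia genes, P4ha1, a collagen hydroxylase subunit, had the largest bound difference of sleep deprivation minus sleep (1.66 ± 0.35, adjusted p = 0.00341). The relatives Ndrg3 and Ndrg4 and the kinases Akt1 and Akt2 had 0 state calls by limma. Of their 24 tests, 3 had an unadjusted p under 0.05, those of Ndrg3 in unbound waking and of Akt2 in bound waking and deprivation against sleep. Without the 3 animals set apart, 1 of the 2 AKT kinases was called higher in bound sleep deprivation.

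**Figure D5:**
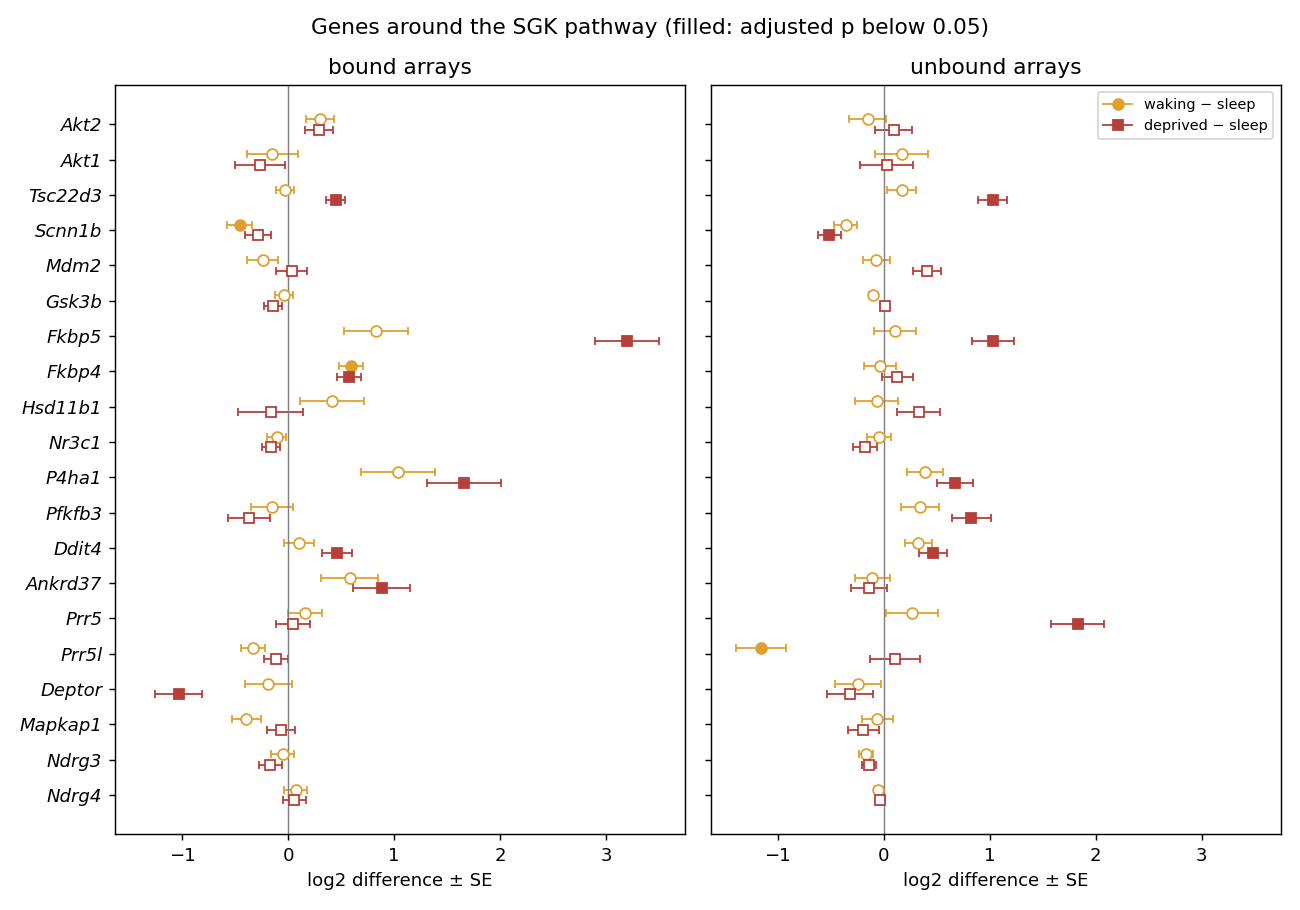
State differences from sleep (log2 ± SE, limma) of 20 genes of the 6 lists, up to 4 per list with the smallest p, in bound (left) and unbound (right) arrays. Filled symbols have an adjusted p below 0.05, and Fkbp5 in bound sleep deprivation (3.20) lies farthest from 0.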

How the data were processed

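Values were log2 signals per probe set that the authors made with RMA, per the submitters' processing notes (which arrays were normalized together, and the version, are not given in the sources used here; array means point to separate runs per group as a possibility). No further normalization was applied. Probe sets were named through the platform annotation: 34945 of 45101 named 1 gene. The brightest probe set per gene was kept, and 13924 of 18193 genes were tested, those whose mean reached the 40th percentile in at least 1 fraction (4.471 log2 bound, 5.183 unbound). State comparisons were fitted with limma 3.58.1 in R 4.3.3 (group means over the 18 arrays of a fraction, intensity trend). Fraction comparisons used per-animal differences, since the labels give both arrays of an animal 1 number. Deviations of the 2 arrays correlated by −0.0032 to 0.0848, and 8 of 18 correlated best with their own animal. Probe sets were also tested singly (25422). The fits were also run on simulated arrays with known changes, whose outcome is not given here. Those arrays were drawn independently, with no offset between runs and no link between the arrays of an animal, so neither was checked.

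The members and lists were chosen with earlier results of these data known. Named genes were the members, the 3 genes most correlated with each, and genes taken from up to 4 per list by smallest p. Not all of those list genes are named in the text, and Pdpk1, Rictor and Vegfa were named outside that rule. Alternatives covered normalization, probe set choice, filters, the trend, pairing and animals left out. Figures used matplotlib 3.10.9 in Python 3.11.15. The 6 animals per group limit the precision.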

Additional observations from a re-analysis of the deposited data

Results flagged for a closer look

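The outlier test took the 11 probe sets in 6 groups, and 5 of 66 groups had a value far from the rest, where chance gives about 1 in 20. One probe set of Sgk3 (not the brightest) stood at 9.57 log2 in bound sleep animal 3 (the others 8.93 to 9.06). The brightest probe set of Sgk3 stood at 9.62 in bound sleep animal 6 (the others 9.92 to 10.09). For Ndrg1, a probe set was 10.05 in unbound deprived animal 9 (the others 10.46 to 10.57). Its dimmest probe set was 11.06 in bound deprived animal 10 (the others 10.38 to 10.53) and 7.89 in unbound sleep animal 5 (the others 6.52 to 6.94).

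State changes that differed between the fractions by limma's test of the difference were Sgk1 in waking against sleep (0.78), Sgk3 in sleep deprivation against sleep (1.26) and against waking (1.08), and Ndrg2 in waking against sleep (0.35) and in sleep deprivation against waking (−0.29).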

How the results depend on the processing

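Of 460 alternative values of the 5 genes, 444 kept their side of the threshold and, where called, their direction. Of the rest, 11 lost a call, 4 gained one and 1 called value reversed. Of 900 that left out 1 animal, 889 kept both in the same sense, 8 lost a call and 3 gained one. Values without a call could change sign. Sgk3 in bound waking against sleep, for example, was −0.03 to 0.10 over the alternatives and −0.01 to 0.11 on leaving out 1 animal. Calls of Sgk2 and Sgk3 changed under none of those run. Sgk1 in bound waking against sleep was 0.84 without the 3 animals set apart (adjusted p = 0.0758) and 0.71 to 1.00 on leaving out 1 animal. Its fraction difference in waking was 0.78 with adjusted p = 0.114 with no animal block, and that of sleep deprivation against waking, −0.57, was called with no filter (adjusted p = 0.043) and was −0.66 to −0.47 on leaving out 1 animal (called without sleep animal 4 or waking animal 5). Ndrg1 in unbound sleep deprivation against waking was no longer called at 0.42 and 0.41 (quantile normalization over all arrays and within fractions), 0.44 (array medians equal), 0.12 (mean of probe sets) and 0.31 (without the 3 animals), and was 0.42 to 0.64 on leaving out 1 animal, with the call lost in 6 of 18 fits. Its fraction difference there was −0.57 to −0.35 (called without waking animal 1). Ndrg2 was called in unbound waking against sleep at 0.12, 0.11 and 0.16 under the 3 normalizations, reversed to 0.16 between fractions with array medians equal, lost its bound call of sleep deprivation against waking at −0.26 without the 3 animals, and lost that fraction difference at −0.16 (medians equal), −0.29 (no trend) and −0.26 (without the 3 animals). The causes were not tested. Of 26 state calls in the gene lists, 22, 22 and 25 were kept under the 3 normalizations and 21 without the 3 animals, a check chosen after seeing the data.

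Counts over all genes moved by more than 1.5 times as follows. With no filter they were 2819, 3551 and 2124 in bound waking against sleep, deprivation against sleep and deprivation against waking (main 1318, 2005 and 698), 2382, 2482 and 2771 in unbound (main 1004, 1089 and 1384) and 2071, 2253 and 1950 for the fraction differences (main 744, 869 and 594). The 60th percentile filter gave 734 and 277 (bound waking, deprivation against waking), 628 and 679 (unbound, against sleep) and 285, 416 and 220 (fraction differences). Without the 3 animals counts were 684 and 234 (bound), 533 and 710 (unbound) and 382 and 194 (fraction differences). Unbound deprivation against waking gave 580, 581 and 562 under the normalizations, and its share of higher calls went from 85.0% to 49.0%, 48.7% and 52.3%. In unbound waking against sleep that share went from 20.6% to 50%, 50.3% and 57.9%, and for the fraction differences from 73.8% to 55.7%, 55.4% and 50% (waking against sleep) and from 25.6% to 51.0%, 51.3% and 58.2% (deprivation against waking). The mean of probe sets gave 911 for the last fraction difference. Between fractions, the share of higher calls went from 30.5% to 53.6% (quantile over all arrays) and 66.6% (medians equal).

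Replicate numbers shared by sleep and waking belong to different animals, and the labels do not pair them (deviations correlated by −0.000946 to 0.0868 in bound and −0.00503 to 0.1 in unbound arrays; 2 and 3 of 6 arrays correlated best with their own number). The 2 arrays of 1 animal correlated about as weakly (−0.0032 to 0.0848), so these ranges alone do not tell pairs from other arrays. Of 18 bound arrays, 8 correlated best with the unbound array of their own animal. With a block for the shared replicate numbers, the count over all genes was 1303 in bound and 464 in unbound waking against sleep, and no member's call changed.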

Other observations

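The genes whose bound signal followed each kinase most closely over 18 arrays differed between the kinases, by Pearson correlations given as descriptions, since arrays of a state share it. For Sgk1 they were Plekhf1 (0.927), Fam107a (0.919) and Klf13 (0.91). For Sgk2 they were Siah1a (0.897), Hnrnpd (0.885) and Iqce (0.867), each lower in both wake groups in the bound arrays (waking minus sleep −0.55, −0.60 and −0.86). For Sgk3 they were Phactr3 (0.978), Pgbd5 (0.955) and Arrdc2 (0.953), each higher in bound sleep deprivation against sleep (1.38, 0.91 and 1.51). Genes picked by correlation over these same arrays share the state pattern of their kinase through that choice, so these differences are no separate result. For Ndrg1 they were Hnrnpm (0.831), Celf1 (0.801) and Ankrd10 (0.799) in bound arrays, and for Ndrg2 Dmrtb1 (0.743), Slc25a29 (0.728) and Ascc2 (0.721) in unbound arrays.

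Within a state, the bound and unbound values of the 6 animals were correlated for each of the 5 genes, a set of 15 relations added after the data were seen. None passed after adjustment. The closest were Sgk2 in sleep (r = 0.966, exact permutation p = 0.00556, adjusted p = 0.0521, rho = 0.943 with exact p = 0.0167) and Sgk1 in sleep deprivation (r = 0.925, exact permutation p = 0.00694, adjusted p = 0.0521, rho = 0.829 with exact p = 0.0583). Without the 2 of 6 animals farthest from the bound median, r was 0.942 and 0.849. That step reversed the sign of other relations, such as Sgk1 in waking (−0.641 to 0.869) and in sleep (0.412 to −0.46). With so few animals left it is a description only. The relations of Sgk2 in sleep and Sgk1 in sleep deprivation sit at the threshold. A first calculation on values rounded to 2 decimals gave both an adjusted p of 0.0417 (exact permutation). The less rounded values were adopted after that result had been seen.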
